A study of Mus musculus with 12 samples.

Results

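Genes for 7 carriers of small organic and inorganic anions were followed in mouse kidney proximal tubules. They are the sodium-coupled lactate carriers Slc5a12 and Slc5a8, the lactate and pyruvate carrier Slc16a1, the sodium-coupled dicarboxylate carriers Slc13a2 and Slc13a3, and the sulfate carriers Slc13a1 and Slc26a1. The genes were picked by name for what they transport, by a rule that uses none of their values. They make up 7 of the 18193 genes that had a probe set of a single symbol on the array, and 7 of the 9751 genes tested. Each gene was read on its probe set of highest mean over the 12 arrays.

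Total RNA of proximal tubules isolated by Percoll centrifugation was hybridised to 1 Affymetrix array per sample, from mice aged 20 weeks on a normal diet. There were 4 groups of 3 arrays. The dB/dB catalase-Tg mice carried both the dB/dB genotype and a catalase transgene, the dB/dB mice the dB/dB genotype alone, the catalase-Tg mice the transgene alone, and the wild-type mice neither. The dB/dB genotype removes the signalling form of the leptin receptor in every tissue and makes mice obese and diabetic. Published work on these mice, though no label, gives the transgene as rat catalase driven by the promoter of Kap, an androgen-responsive proximal tubule gene. Kap itself read 8.46 on catalase-Tg 1 and 8.63 on wild type 1, and between 11.70 and 15.29 on the other 10 arrays. The labels number the 3 samples of a group without saying that each was another animal. The p-values therefore cover the spread of these samples alone. In the 3 groups other than wild type, that spread may be wholly technical. The wild-type arrays differed in sex-linked genes, given below, and so did not all read the same RNA.

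The proximal tubule takes filtered solutes back from urine through carriers in its brush border and passes them to blood through carriers in its basolateral membrane. Slc5a12 and Slc5a8 take up lactate and other monocarboxylates with sodium at the brush border, Slc5a12 early and Slc5a8 later along the tubule. Slc16a1 (MCT1) moves lactate and pyruvate with a proton and needs the membrane protein basigin (Bsg) to reach the cell surface. Slc13a2 (NaDC1) takes up citrate and succinate from urine, and Slc13a3 (NaDC3) brings dicarboxylates in from blood, which feeds the organic anion exchangers. Slc13a1 (NaS1) takes up sulfate at the brush border, and Slc26a1 (Sat1) exchanges sulfate for oxalate or bicarbonate at the basolateral membrane.

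Promoters of 5 of the 7 genes were found in RefSeq (build GRCm38.p6), each running from 250 bases before to 50 bases after the gene's start. Of these genes, Slc26a1 had 2 entries, which are not shown. The other 4 genes had 1 entry each, and these are shown. They are Slc5a8 on the plus strand at chr10:88885742-88886041, Slc16a1 on the plus strand at chr3:104638414-104638713, Slc13a2 on the minus strand at chr11:78422185-78422484 and Slc13a3 on the minus strand at chr2:165473148-165473447. Each is written 5′ to 3′ on the gene's own strand, with motif matches in capitals.
Slc5a8: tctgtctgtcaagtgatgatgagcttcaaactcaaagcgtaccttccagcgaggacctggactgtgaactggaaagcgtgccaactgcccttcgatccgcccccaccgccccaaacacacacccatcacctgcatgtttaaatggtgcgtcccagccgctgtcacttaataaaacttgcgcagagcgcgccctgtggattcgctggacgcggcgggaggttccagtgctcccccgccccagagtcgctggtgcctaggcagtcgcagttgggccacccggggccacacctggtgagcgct
Slc16a1: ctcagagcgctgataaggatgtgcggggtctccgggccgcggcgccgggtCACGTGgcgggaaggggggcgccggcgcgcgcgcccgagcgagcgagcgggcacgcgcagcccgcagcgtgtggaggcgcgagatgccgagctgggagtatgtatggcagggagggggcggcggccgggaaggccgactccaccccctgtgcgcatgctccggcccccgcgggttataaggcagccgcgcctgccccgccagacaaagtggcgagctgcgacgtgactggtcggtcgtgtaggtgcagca
Slc13a2: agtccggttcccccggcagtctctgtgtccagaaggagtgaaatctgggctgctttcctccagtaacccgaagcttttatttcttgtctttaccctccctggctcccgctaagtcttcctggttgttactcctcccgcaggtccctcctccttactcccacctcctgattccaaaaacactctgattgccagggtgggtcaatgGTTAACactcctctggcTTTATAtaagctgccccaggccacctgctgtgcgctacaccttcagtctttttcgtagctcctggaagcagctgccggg
Slc13a3: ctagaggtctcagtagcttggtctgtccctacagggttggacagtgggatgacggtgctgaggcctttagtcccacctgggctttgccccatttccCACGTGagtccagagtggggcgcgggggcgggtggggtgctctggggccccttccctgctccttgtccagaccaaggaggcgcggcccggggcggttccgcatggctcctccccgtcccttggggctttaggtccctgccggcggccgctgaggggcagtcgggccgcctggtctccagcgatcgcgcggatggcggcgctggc
A set of 5 motifs was searched on both strands: the E-box CACGTG, the HNF1 half-site forms GTTAAT and GTTAAC, the TATA box TATAAA and the HNF4 form CAAAGTCCA. Counted from the gene's start to the leftmost base of the match, CACGTG lay at position -200 of Slc16a1 and at position -154 of Slc13a3, and 7.15% of 32851 promoters of the same length hold it. The Slc13a2 promoter held GTTAAC at position -46, which 3.05% of promoters hold, and TATAAA on the opposite strand at position -29, which 13.6% hold. The Slc5a8 window held none of the 5, and no matches overlapped. Of the Slc26a1 entries, which are not shown, the first held none of the 5. The second held CACGTG at position -47 and TATAAA on the opposite strand at position -240. The Slc16a1 promoter held 42 CpG, more than 97% of promoters, against 22 in Slc13a3, 20 in Slc5a8 and 8 in Slc13a2. A match is a run of letters and was not tested as a binding site.

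The deposited values were on a log2 scale and ran from 2.302, the floor of the scale, to 15.66. Over all probe sets, r was 0.942 to 0.996 within groups and 0.938 to 0.991 between groups. All 12 of 12 proximal tubule markers, those of the labelled tissue, passed the filter on low values. Each marker was set against its own mean over the 12 arrays, and the average of these differences (log2) gave the score of an array. It ran from -0.44 to 0.75 in dB/dB catalase-Tg, from -0.74 to -0.51 in dB/dB, from -0.34 to 1.18 in catalase-Tg and from -1.85 to 0.73 in wild type. Markers of other cells were present too. Of 8 loop of Henle and distal tubule markers all 8 passed, with scores from 0.21 to 0.99 in dB/dB catalase-Tg, 1.05 to 1.53 in dB/dB, -2.44 to -1.52 in catalase-Tg and -1.70 to 1.66 in wild type. The 8 endothelial markers all passed and scored from -1.36 to 1.51 in dB/dB catalase-Tg, 0.94 to 1.87 in dB/dB, -1.82 to -0.27 in catalase-Tg and -1.63 to 1.64 in wild type. Of the markers of the other kinds, 4 of 6 podocyte, 4 of 7 fibroblast and mural, 3 of 8 collecting duct and 3 of 6 leukocyte genes passed the filter, and Aqp2 and Col1a1 lay at or near the floor. Over the 27 of 37 markers of 5 other cell kinds that passed, scores ran from -0.79 to 1.30 in dB/dB catalase-Tg, 0.78 to 1.72 in dB/dB, -1.61 to -1.20 in catalase-Tg and -1.68 to 1.65 in wild type. In bulk tissue, fewer cells of a type and less RNA per cell cannot be told apart. The marker scores entered the tests as covariates in fits given further on, and their part in the results was otherwise not tested. Wild type 2 also differed from the other arrays in sex-linked genes, with Xist at 11.91 and the Y-linked Eif2s3y at the floor of 2.30. Wild type 3 read 6.72 for Xist and 7.89 for Eif2s3y, and Xist was at most 2.67 on the other 10 arrays.

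The first lactate carrier, Slc5a12, was higher wherever the transgene was present, by 1.43 in dB/dB mice and 1.40 in otherwise wild-type mice (log2), but neither difference passed the test over all probe sets. It read 10.59, 12.41 and 12.33 in dB/dB catalase-Tg, 10.20, 10.62 and 10.24 in dB/dB, 11.86, 12.61 and 12.55 in catalase-Tg and 9.86, 11.60 and 11.34 in wild type. All catalase-Tg arrays lay above all wild-type arrays, and dB/dB catalase-Tg overlapped dB/dB only through its array 1. The difference of dB/dB catalase-Tg from dB/dB was 1.43 ± 0.54 (SE) log2, with an adjusted p of 0.636 in limma, and that of catalase-Tg from wild type was 1.40 ± 0.54, adjusted p = 0.532. With single arrays left out, the value in dB/dB mice ran from 1.11 to 2.02, and the value against wild type ran from 0.86, without wild type 1, to 1.74. Averaged over both genotypes the transgene difference was 1.42 ± 0.38, which was the smallest p of the 7 genes and still had an adjusted p of 0.183. The dimmer Slc5a12 probe set read 9.16, 11.53 and 11.61 in dB/dB catalase-Tg against 8.88, 8.75 and 9.01 in dB/dB. On it these groups did not overlap, and its average transgene difference was 1.66 ± 0.47, adjusted p = 0.186. The probe sets correlated at r = 0.982 over the 12 arrays. The difference of dB/dB from wild type was -0.58 ± 0.54, adjusted p = 0.768.

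Slc5a8, the lactate carrier of the later proximal tubule, had the widest spread of the 7. It read 5.26, 10.36 and 10.57 in dB/dB catalase-Tg, 6.23, 4.36 and 7.05 in dB/dB, 3.94, 10.47 and 10.06 in catalase-Tg and 2.77, 8.92 and 8.50 in wild type. Array 1 stood far below arrays 2 and 3 in 3 of the groups, and in dB/dB all 3 arrays were low. Group means were 8.73 ± 3.01 in dB/dB catalase-Tg, 5.88 ± 1.38 in dB/dB, 8.16 ± 3.66 in catalase-Tg and 6.73 ± 3.44 in wild type (SD, n = 3 each). The difference of dB/dB catalase-Tg from dB/dB was 2.85 ± 2.16 (SE) log2, adjusted p = 0.658, and dB/dB differed from wild type by -0.85 ± 2.16, adjusted p = 0.892. The difference of 2.85 exceeded its SE and the SD within dB/dB, but not the SD within dB/dB catalase-Tg, and neither difference passed the test. Slc5a8 had a single probe set, so no second one could be set beside it.

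Slc16a1, the proton-coupled lactate carrier, was steady in dB/dB and scattered in wild type. It read 8.70, 10.11 and 11.20 in dB/dB catalase-Tg, 9.30, 9.20 and 9.45 in dB/dB, 11.48, 11.28 and 10.68 in catalase-Tg and 7.41, 10.80 and 11.16 in wild type. The dB/dB arrays lay below wild type 2 and 3 and above wild type 1, so that the groups overlapped. The difference was -0.47 ± 0.89 (SE) log2 between dB/dB and wild type, with an adjusted p of 0.854, and 1.36 ± 0.89 between catalase-Tg and wild type, with an adjusted p of 0.653. The value of 1.36 was 0.17 without wild type 1. In the plot of the 7 carriers by array, wild type 1 stands lowest for 6 of them, the exception being Slc13a3.

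**Figure D1:**
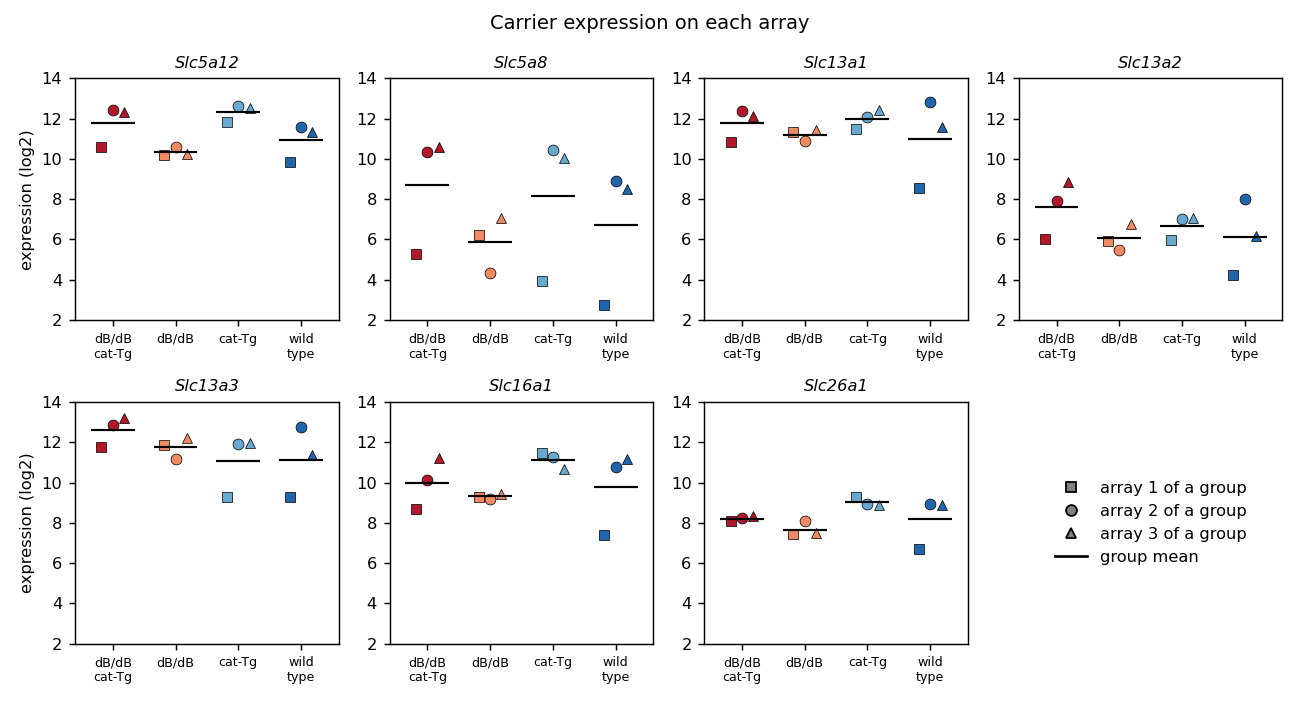
Expression (log2, vertical axis) of the 7 carriers on each of the 12 arrays by group, with array 1, 2 or 3 of a group as its own symbol and a bar at the group mean. Wild type 1 is the lowest array in 6 of the 7 panels, and Slc5a8 spans the widest range, from 2.77 to 10.57.

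Of the dicarboxylate carriers, Slc13a2 at the brush border was highest in dB/dB catalase-Tg, but with overlap. It read 6.03, 7.90 and 8.85 in dB/dB catalase-Tg, 5.95, 5.49 and 6.79 in dB/dB, 5.95, 7.01 and 7.06 in catalase-Tg and 4.21, 7.998 and 6.19 in wild type. Array 1 of dB/dB catalase-Tg lay within the dB/dB arrays, and the other 2 lay above them. The difference of dB/dB catalase-Tg from dB/dB was 1.52 ± 0.92 (SE) log2, adjusted p = 0.636. Between dB/dB and wild type it was -0.06 ± 0.92, adjusted p = 0.983.

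Slc13a3, the dicarboxylate carrier of the basolateral membrane, was the one member whose average dB/dB difference was above 1 with all 12 arrays. It read 11.79, 12.88 and 13.21 in dB/dB catalase-Tg, 11.87, 11.18 and 12.21 in dB/dB, 9.27, 11.94 and 11.98 in catalase-Tg and 9.29, 12.77 and 11.37 in wild type. The groups with the dB/dB genotype spread less, and the low readings were array 1 of catalase-Tg and of wild type. The average dB/dB difference was 1.09 ± 0.64 (SE) log2, adjusted p = 0.461. It was 0.64 with catalase-Tg 1 left out, 0.62 with wild type 1 left out, and 0.38 when array 1 of these groups and of dB/dB catalase-Tg was left out together. A dimmer Slc13a3 probe set followed it at r = 0.976, and a further 2 lay at or near the floor. The brighter one carries the array maker's mark for probe sets that may also bind other transcripts.

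Of the sulfate carriers, Slc13a1 at the brush border had group means of 11.80 in dB/dB catalase-Tg, 11.21 in dB/dB, 11.99 in catalase-Tg and 10.99 in wild type. It read 10.84, 12.40 and 12.15 in dB/dB catalase-Tg, 11.33, 10.88 and 11.43 in dB/dB, 11.48, 12.08 and 12.41 in catalase-Tg and 8.56, 12.85 and 11.58 in wild type. Wild type held both the lowest and the highest reading. The difference of dB/dB from wild type was 0.22 ± 0.88 (SE) log2, adjusted p = 0.935, and was -0.9996 ± 0.52 without wild type 1, adjusted p = 0.276.

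Slc26a1, the basolateral sulfate exchanger, was lower in dB/dB catalase-Tg than in catalase-Tg on every array. It read 8.07, 8.22 and 8.35 in dB/dB catalase-Tg, 7.43, 8.08 and 7.48 in dB/dB, 9.30, 8.96 and 8.88 in catalase-Tg and 6.72, 8.96 and 8.87 in wild type. Apart from wild type 1, the 5 arrays of mice without the dB/dB genotype lay above all 6 arrays of mice with it. Wild type 1 was set aside here after its value was seen. The share of all probe sets parted in this way was not counted. The difference of dB/dB catalase-Tg from catalase-Tg was -0.83 ± 0.50 (SE) log2, adjusted p = 0.771. On the dimmer probe set the 2 groups did not overlap either, with a difference of -0.51 ± 0.39, adjusted p = 0.802. That probe set carries the array maker's mark for probe sets that may also bind other transcripts. The average dB/dB difference on the brighter probe set was -0.68 ± 0.35, adjusted p = 0.43. Without wild type 1 it was -1.04 ± 0.16, adjusted p = 0.0121, where 6.87% of probe sets passed, and any difference among the 4 groups had an adjusted p of 0.0249, where 4.11% passed.

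No carrier passed an adjusted p of 0.05 in any of the 8 comparisons with limma, and few probe sets did. In dB/dB against wild type 0 of 7 were called, with 0% of 18144 probe sets called. No carrier and 755 probe sets had an unadjusted p under 0.05 there. In catalase-Tg against wild type 0.022% of probe sets were called, and 1660 probe sets and 1 carrier, Slc5a12, had an unadjusted p under 0.05. The transgene within dB/dB gave 0.00551% called, and again Slc5a12 among 1360 probe sets at an unadjusted p under 0.05. For dB/dB catalase-Tg against catalase-Tg 0.0276% were called, with 1245 probe sets and 0 carriers at an unadjusted p under 0.05. The share called was 0.0165% for the average dB/dB difference, 0.0276% for the average transgene difference, 0.00551% for their interaction and 0.0386% for any difference among the 4 groups. Groups free of overlap were seen for Slc5a12, higher in catalase-Tg than in wild type, where 5.74% of probe sets lay above and 7.8% below without overlap. They were also seen for Slc26a1, lower in dB/dB catalase-Tg than in catalase-Tg, where 9.35% of probe sets lay below and 6.67% above. In dB/dB against wild type no carrier was free of overlap, where 2.52% of probe sets lay above and 8.91% below, and none was in dB/dB catalase-Tg against dB/dB, where 4.87% lay above and 11.1% below. Beside this background, 1 carrier of 7 is no result about the carriers.

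By direction, all 7 carriers had a positive difference in dB/dB catalase-Tg against dB/dB, with a median of 0.87 (log2) beside -0.02 over all probe sets tested. So had 11 of 12 proximal tubule markers, with a median of 0.66. On its dimmer probe set Slc13a1 was at -0.050. On the brightest probe sets all 7 carriers remained positive with each array left out in turn. Their medians ran from 0.58, without dB/dB catalase-Tg 3, to 1.34, without dB/dB catalase-Tg 1. For catalase-Tg against wild type 6 of 7 were positive, with a median of 1.00 beside -0.02. Without wild type 1 this became 3 of 7 with a median of -0.22, and without wild type 2 it became 7 of 7 with a median of 1.74. In dB/dB against wild type 2 of 7 were positive, with a median of -0.47 beside -0.11. Without wild type 1 it was 0 of 7 with a median of -1.12, without wild type 2 it was 5 with a median of 0.24, and without wild type 3 it was 4 with a median of 0.04. Without dB/dB 1 or dB/dB 2 it was 3, with medians of -0.40 and -0.09. In dB/dB catalase-Tg against catalase-Tg 3 of 7 were positive, with a median of -0.19 beside -0.10. Over single arrays left out this ran from 2 of 7 with a median of -0.70, without catalase-Tg 1, to 5 of 7 with a median of 0.29, without dB/dB catalase-Tg 1. Each group enters 2 of these 4 comparisons, so the counts are not independent of each other. Of all probe sets, 48.3% were positive in dB/dB catalase-Tg against dB/dB and 47.5% in catalase-Tg against wild type. The share was 38% in dB/dB against wild type, 37.9% in dB/dB catalase-Tg against catalase-Tg and 47.1% in the average transgene difference. In the average transgene difference all 7 were positive, with a median of 1.02 beside -0.02. Without wild type 1 it was 6 of 7 with a median of 0.43, and it was all 7 without each of the other arrays in turn. Cell markers moved with it on most lists. All 12 proximal tubule markers were positive, with a median of 0.70. All 8 loop and distal tubule markers and all 8 endothelial markers were negative, with medians of -1.41 and -1.57. The 4 podocyte and the 4 fibroblast and mural markers were negative too. Of 3 collecting duct markers 2 were positive, with a median of 0.11, and of 3 leukocyte markers 1 was. None of these markers passed the test either.

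The calls changed when 3 arrays were left out. Array 1 of dB/dB catalase-Tg, of catalase-Tg and of wild type had array weights of 0.172, 0.287 and 0.227 in limma, the lowest of the 12, and were left out in an alternative chosen after the data had been seen. All 7 carriers were lower on array 1 of dB/dB catalase-Tg and of wild type than the mean of arrays 2 and 3. Leaving these out therefore had to raise dB/dB catalase-Tg against dB/dB and lower dB/dB against wild type. In dB/dB catalase-Tg against dB/dB 4 of 7 carriers then passed, all higher, where 27.8% of probe sets were called in either direction. Slc5a12 was 2.02 higher (log2), adjusted p = 0.00112, Slc5a8 4.59, adjusted p = 0.00401, Slc13a2 2.30, adjusted p = 0.024, and Slc16a1 1.34, adjusted p = 0.022. In dB/dB against wild type 4 of 7 then passed, all lower, where 26.9% were called: Slc5a12 by -1.12, adjusted p = 0.00503, Slc5a8 by -2.83, adjusted p = 0.0202, Slc16a1 by -1.66, adjusted p = 0.0112, and Slc26a1 by -1.25, adjusted p = 0.00675. Wild type then rested on arrays 2 and 3, the arrays on which Xist was read. Xist was low on every dB/dB array. The dB/dB genotype and the difference in Xist therefore cannot be told apart in dB/dB against wild type without these arrays. In catalase-Tg against wild type and in dB/dB catalase-Tg against catalase-Tg no carrier passed, where 0.171% and 0.127% of probe sets were called. In the averages 3 were lower with dB/dB, where 19.4% of probe sets were called, and 2 higher with the transgene, where 20.5% were. Any difference among the 4 groups passed for 4, where 31.7% were called, and the interaction for none, where 0.788% were. Array weights in place of leaving arrays out gave the least weight to the same 3 arrays, so that fit is no separate support. With them 5 of 7 passed in dB/dB catalase-Tg against dB/dB, where 38.5% were called, and 5 in any difference, where 42.8% were. In the averages 2 passed for the transgene, where 26.4% were called, and 1 for dB/dB, where 10.9% were. None passed in dB/dB against wild type (0% called), in catalase-Tg against wild type (0.0331%) or in the interaction (0.00551%), nor did any between dB/dB catalase-Tg and catalase-Tg, where 4.87% were called. With the other-cell marker score or the proximal tubule score as a covariate over all 12 arrays, 0 of 7 were called in each of the 8 comparisons, but at most 0.0606% of all probe sets were called in these fits, so the count says nothing about the carriers.

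The carriers did not all follow array 1. As the difference of array 1 from the mean of arrays 2 and 3, all 7 were negative in dB/dB catalase-Tg, with a median of -1.78 (log2), 4 in dB/dB, with a median of -0.03, 5 in catalase-Tg, with a median of -0.77, and all 7 in wild type, with a median of -2.88. Over all probe sets the medians were -0.24 in dB/dB catalase-Tg, 0.10 in dB/dB, -0.12 in catalase-Tg and -0.01 in wild type.

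On catalase-Tg 1 the lactate carriers parted. Slc5a8 was -6.33 from its other 2 arrays and Slc13a3 was -2.69, whereas Slc5a12 was -0.72, Slc16a1 was 0.50 and Slc26a1 was 0.38. Slc7a13, an amino acid carrier that marks the last (S3) part of the proximal tubule, was -9.59 on that array, and Slc5a10, a sugar carrier, was -6.36. Slc5a2 (SGLT2) and Slc34a1 (the sodium-phosphate carrier), which mark the early tubule, were 0.55 and 0.31. The organic anion carrier Slc22a6 was -3.21. On dB/dB catalase-Tg 1 Slc5a8 was -5.21, Slc16a1 -1.96, Slc5a12 -1.78 and Slc26a1 -0.21. On wild type 1 all were low, with Slc5a8 at -5.94, Slc16a1 at -3.57, Slc26a1 at -2.19, Slc5a12 at -1.62, Slc22a6 at -6.10 and Lrp2 (megalin) at -2.60. What set these arrays apart was not tested.

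**Figure D2:**
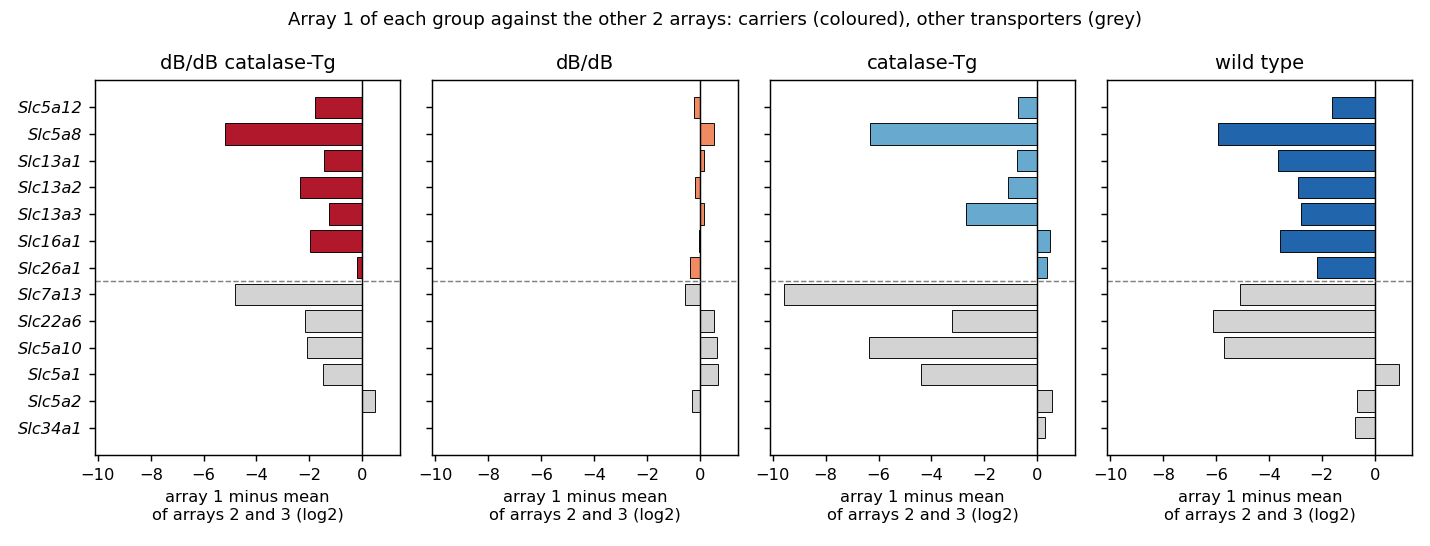
Array 1 minus the mean of arrays 2 and 3 of its group (log2) for the carriers and for tubule markers, by group. In catalase-Tg, Slc5a8 (-6.33) lies far below Slc5a12 (-0.72) and Slc16a1 (0.50), and in wild type all 7 carriers lie below 0.

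Pairs of carriers correlated over the 12 arrays at r = 0.16 to 0.895, with a median of 0.751 over 21 pairs. Slc16a1 and Slc26a1 were the closest pair and Slc13a3 and Slc26a1 the farthest. These are descriptions over arrays that share a group and the low array 1. Of 9744 other genes, the ones most like each carrier over the 12 arrays by Pearson r were Aspscr1 for Slc5a12 at 0.978, Entpd5 for Slc5a8 at 0.985, Aass for Slc13a1 at 0.982, Vnn1 for Slc13a2 at 0.961, Slc5a10 for Slc13a3 at 0.98, Trim63 for Slc16a1 at 0.972 and Pdzd3 for Slc26a1 at 0.982. The second nearest were Them7 for Slc5a12 at 0.973, Rassf3 for Slc5a8 at 0.973, Dmgdh for Slc13a1 at 0.969, Hlf for Slc13a2 at 0.96, Oplah for Slc13a3 at 0.922, Ndrg1 for Slc16a1 at 0.963 and St6galnac2 for Slc26a1 at 0.978.

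**Figure D3:**
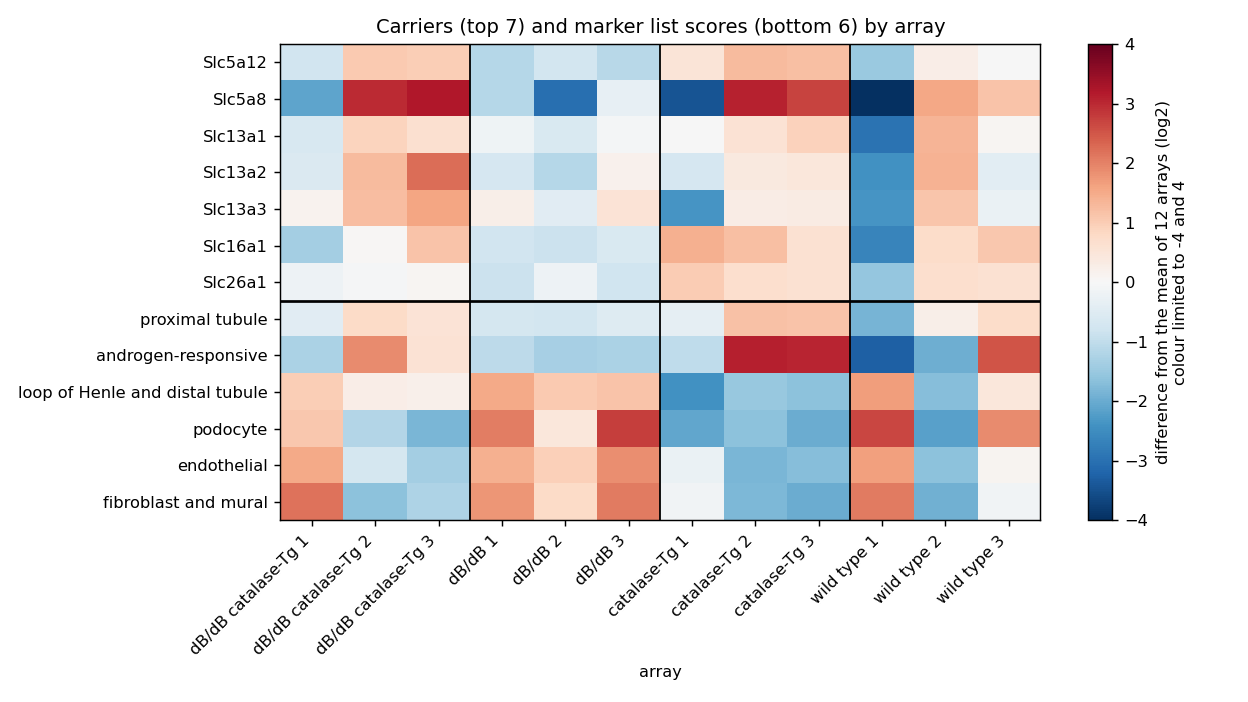
Each carrier (upper rows) on each array as its difference from the gene's mean over the 12 arrays (log2, colour limited at both ends), arrays in columns by group. Lower rows hold the scores of marker lists: proximal tubule, androgen-responsive genes, loop of Henle and distal tubule, podocyte, endothelial, and fibroblast and mural. Arrays dB/dB 2 and wild type 1 are below the mean for all 7 carriers, and dB/dB catalase-Tg 3, catalase-Tg 2 and 3 and wild type 2 for none.

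Related genes from 6 lists were read beside the carriers, and 0 of 55 tested genes passed in any of the 8 comparisons with limma. At an unadjusted p under 0.05 there were 2 of them in dB/dB against wild type, 15 in the average transgene difference and 9 in the average dB/dB difference. Over all 18144 probe sets the counts were 755, 3287 and 2206 in the same order. The lists were not tested against that background. Among 11 of 14 other SLC16 carriers and chaperones tested, the lactate and pyruvate carrier Slc16a7 (MCT2) had its highest group mean in dB/dB and its lowest in catalase-Tg, the groups where Slc16a1 had its lowest and its highest. It read 11.19, 9.77 and 10.22 in dB/dB catalase-Tg, 11.80, 11.84 and 11.51 in dB/dB, 7.17, 8.06 and 8.10 in catalase-Tg and 12.17, 7.76 and 10.24 in wild type. Its average dB/dB difference was 2.14 ± 0.61 (SE) log2, adjusted p = 0.372, and its average transgene difference -1.80 ± 0.61, adjusted p = 0.201. Emb (embigin), a chaperone of MCT2, had 2.14 ± 0.63 for the average dB/dB difference, adjusted p = 0.372, and -1.98 ± 0.63 for the transgene, adjusted p = 0.194. Bsg, the chaperone of MCT1, stayed between 11.39 and 11.93 on the 12 arrays. Slc16a5 averaged 1.33 ± 0.54 for dB/dB, adjusted p = 0.399.

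**Figure D4:**
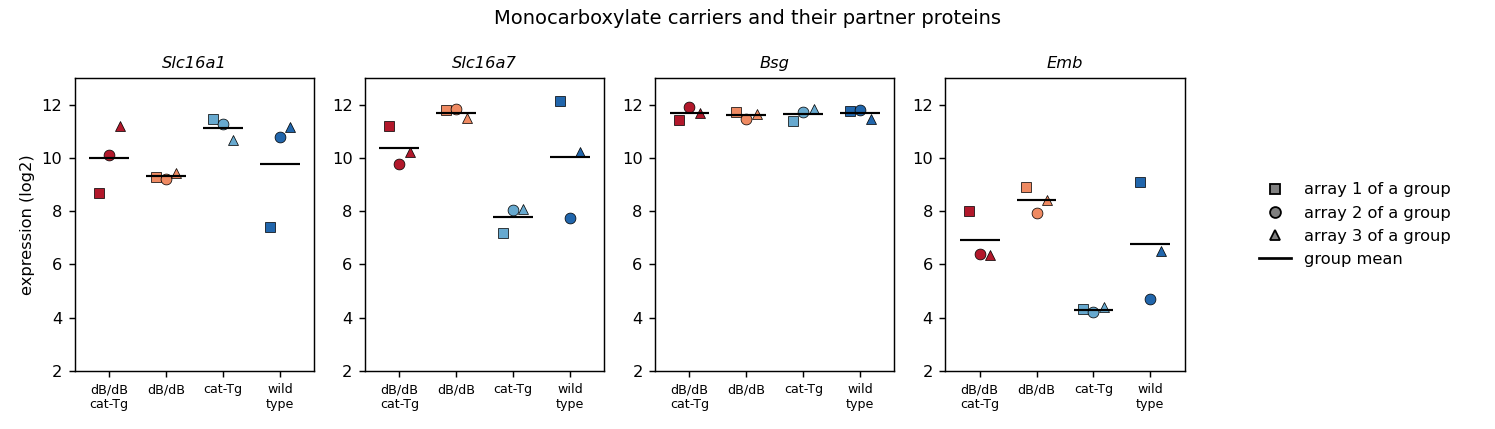
Expression (log2, vertical axis) of Slc16a1, Slc16a7, Bsg and Emb on each array by group, with a bar at the group mean. Slc16a7 and Emb are lowest in catalase-Tg, where Slc16a7 reads 7.17 to 8.10, and Bsg stays between 11.39 and 11.93.

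Of 10 of 12 lactate and pyruvate metabolism genes tested, Ldhd, the mitochondrial dehydrogenase of D-lactate, had an average transgene difference of 1.53 ± 0.48 (SE) log2, adjusted p = 0.192. Pdk1, a kinase that turns off pyruvate dehydrogenase, had an average dB/dB difference of 1.98 ± 0.40, adjusted p = 0.295, and Pdk4, another such kinase, 1.18 ± 0.39, adjusted p = 0.372. Pdk1 read 8.50, 8.56 and 9.15 in dB/dB catalase-Tg, 9.26, 9.10 and 9.51 in dB/dB, 6.03, 6.28 and 6.47 in catalase-Tg and 9.44, 6.56 and 7.42 in wild type. Apart from wild type 1, again set aside after its value was seen, every array with the dB/dB genotype lay above every array without it. The share of all probe sets parted in this way was not counted.

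Of 12 of 14 di- and tricarboxylate genes tested, Oxgr1, the receptor for oxoglutarate in the distal nephron, had an average dB/dB difference of 1.81 ± 0.54 (SE) log2, adjusted p = 0.372. Slc25a1, the mitochondrial citrate carrier, had -0.84 ± 0.30, adjusted p = 0.383, and Slc13a4, a sulfate carrier, -0.10 ± 0.43, adjusted p = 0.922. Of 11 of 16 sulfate and anion exchange genes tested, Slc26a4 (pendrin), of intercalated cells, differed by 2.92 ± 0.94 between dB/dB and wild type, with an adjusted p of 0.767, while Slc26a6 was -0.77 ± 0.65 and Slc26a7 -0.27 ± 0.91. In limma, Slc13a4 and Slc26a7 had an unadjusted p under 0.05 for the average transgene difference. So had Slc26a7 in catalase-Tg against wild type and Slc26a6 in dB/dB catalase-Tg against dB/dB. None of these passed after adjustment. Slc26a4 and Oxgr1 belong to cells beyond the proximal tubule. Scores of the 3 collecting duct markers measured, Slc26a4 among them, ran from 0.01 to 0.70 in dB/dB catalase-Tg, 0.08 to 1.05 in dB/dB, -0.59 to -0.27 in catalase-Tg and -0.81 to -0.31 in wild type, and their part in these differences was not tested.

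Among 7 of 11 other SLC5 genes tested, the glucose carrier Slc5a1 was low on catalase-Tg 1 (3.66, against 7.02 to 9.36 on the other 11 arrays), Slc5a3 (the myo-inositol carrier) had an average dB/dB difference of 1.65 ± 0.57 (SE) log2, adjusted p = 0.38, and Slc5a11 an average transgene difference of 1.19 ± 0.53, adjusted p = 0.274. Of 4 of 6 brush border scaffold and transcription factor genes tested, the average transgene difference was 0.58 ± 0.23 for Slc9a3r1 (NHERF1), 0.99 ± 0.41 for Hnf4a and -1.70 ± 0.82 for Slc9a3r2 (NHERF2), with adjusted p-values of 0.24, 0.248 and 0.302.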

How the data were processed

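Log2 expression per probe set was deposited by the authors for 12 arrays. The tools named are GCRMA, a background correction and normalisation between arrays, and limma, per the submitters' processing notes. Their versions are not given in the sources used here. No further normalisation was applied.

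Of 45101 probe sets, 64 were array controls. Tests took the 18144 probe sets that exceeded 4 (log2) on 3 or more arrays, and used limma 3.58.1 in R 4.3.3, 1 mean per group, default empirical Bayes and Benjamini-Hochberg adjustment over all of them at 0.05. The 8 comparisons were 4 pairs of groups, their interaction, both average effects and any difference. Of 14 member probe sets of 1 symbol, 11 were tested. No level was set against that of another probe set. The number of arrays limits the precision. The tests were tested on simulated data.

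Genes came from GEO's annotation of the array and RefSeq (GRCm38.p6). The text names every member, up to 3 genes of smallest p in any difference for each list, the 2 genes most like each member, and markers whose values move with a member. Bsg, the early and late tubule markers and the sex-linked genes were added with their values known. The members and lists were chosen with earlier results of these data known.

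Same-numbered arrays deviated together from their group means in catalase-Tg and wild type (r = 0.396, 0.2 and 0.308). They did so too in dB/dB catalase-Tg and catalase-Tg (0.607, 0.453 and 0.426). The labels name no pairing, and arrays of different numbers were not compared. Array 1 had a low array weight in each of these groups, and deviations within a group balance out. These values therefore cannot tell a pairing of arrays from a shared low array 1. Of the other compared pairs, dB/dB with wild type and dB/dB catalase-Tg with dB/dB had at least 1 number at or under 0.1. The uncompared pair of dB/dB catalase-Tg and wild type gave 0.705, 0.525 and 0.265. Alternatives covered the filter, normalisation, spread estimate, array weights, the replicate block, the groups in the fit, the probe set and leaving out arrays.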

Additional observations from a re-analysis of the deposited data

How the results depend on the processing

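With 12 arrays and limma, 0 members were called in each comparison. Under array weights the count was 5 for any difference, 1 for the average dB/dB difference, 2 for the average transgene difference and 5 for the transgene within dB/dB. Without array 1 of 3 groups, an alternative chosen after seeing the data, it was 4, 3 and 2 in the first 3 of these, with 4 in dB/dB against wild type and 4 in dB/dB catalase-Tg against dB/dB. The shares of all probe sets called in these fits are given above. Leaving out each array in turn gave 0 to 1 for any difference and for the average dB/dB difference, the 1 being Slc26a1 without wild type 1, and 0 elsewhere. With wild type 1 left out, 4.11% of all probe sets were called for any difference and 6.87% for the average dB/dB difference. With wild type 2 left out, 5.34% were called for the average transgene difference and 1.49% in catalase-Tg against wild type. The replicate block called 0 members in each comparison and changed no call; with it Slc5a12 was -0.58 between dB/dB and wild type, adjusted p = 0.572. The other alternatives called 0 members. In them and with the replicate block at most 0.0615% of probe sets were called, so these counts say nothing about the members. No cause was tested.

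Signs turned as follows (log2). With array weights, Slc13a1 gave -0.18 for the average dB/dB difference, -0.36 for dB/dB against wild type, 0.0029 for dB/dB catalase-Tg against catalase-Tg and 0.36 for the interaction. Slc13a3 gave 0.18 for catalase-Tg against wild type, and the interaction was 0.78 for Slc16a1 and 0.43 for Slc26a1. Without array 1 of 3 groups, Slc13a1 gave -0.48, -0.9996, 0.030 and 1.03 in the same comparisons, Slc13a2 gave -0.058 for catalase-Tg against wild type, Slc13a3 gave -0.32 for dB/dB against wild type, and the interaction was 1.34 for Slc16a1 and 0.62 for Slc26a1. Slc13a2 in dB/dB against wild type was 0.059 with median centring and 0.075 with quantile normalisation, and the Slc5a12 interaction -0.013 and -0.0249. On the next brightest probe set, Slc13a1 in dB/dB catalase-Tg against dB/dB was -0.050 and Slc13a3 in catalase-Tg against wild type 0.13.

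Over single arrays left out, Slc13a1 ranged from -0.60 to 0.48 for the average dB/dB difference, -0.22 to 1.92 for catalase-Tg against wild type, -0.9996 to 1.14 for dB/dB against wild type, -0.49 to 0.29 for dB/dB catalase-Tg against catalase-Tg and -1.34 to 0.81 for the interaction. Slc13a2 ranged from -0.051 to 0.90, -0.42 to 1.47 and -1.02 to 0.87 in the first 3 of these. Slc13a3 ranged from -0.065 to 0.84 for the average transgene difference, -1.004 to 0.82 for catalase-Tg and -0.32 to 1.42 for dB/dB against wild type. Slc16a1 ranged from -1.66 to 0.21 for dB/dB against wild type and -1.35 to 0.52 for the interaction, Slc26a1 from -0.70 to 0.42 for the interaction, and Slc5a12 from -0.87 to 0.036 for dB/dB catalase-Tg against catalase-Tg and -0.31 to 0.62 for the interaction. Slc5a8 ranged from -1.19 to 0.73 for the average dB/dB difference, -0.56 to 3.53 for catalase-Tg and -2.83 to 0.24 for dB/dB against wild type, -1.54 to 2.31 for dB/dB catalase-Tg against catalase-Tg and -0.69 to 3.41 for the interaction.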

Other observations

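Of 11 other SLC16 carriers and chaperones tested, 8 had a positive and 3 a negative average transgene difference, and 4 a positive and 7 a negative average dB/dB difference, and none passed the test. Slc16a5 and Slc16a7 were negative for the transgene and positive for dB/dB. The 4 carriers given here were picked after their values were seen, for the opposite signs. For the transgene the values were 1.37 ± 0.84 (SE) log2 for Slc16a4, adjusted p = 0.394, 1.41 ± 0.79 for Slc16a9, a carrier linked to carnitine and urate, adjusted p = 0.356, 1.07 ± 0.71 for Slc16a12, a creatine carrier, adjusted p = 0.438, and 0.57 ± 0.50 for Slc16a13, adjusted p = 0.556. For dB/dB they were -1.004, -0.91, -0.89 and -0.58, with adjusted p-values of 0.562, 0.575, 0.549 and 0.576.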
